A study of Rattus norvegicus with 20 samples.

Results

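rno-miR-146a-5p and rno-miR-146b-5p, written miR-146a-5p and miR-146b-5p below, are closely related microRNAs (miRNAs) encoded at separate loci. They were followed here in the kidneys of rats given aristolochic acid I (AAI), a plant toxin that injures renal tubules and damages DNA. Both were chosen by name, as 2 of the 719 rat miRNAs on the array, with earlier results of these data known. Kidneys came from male Wistar rats of 80 to 100 g. AAI rats received 40 mg per kg intraperitoneally and were collected on day 2, day 4 or day 6. Vehicle rats received a polyethylene glycol and water mixture and were collected on day 6. There were 5 kidneys in each of the 4 groups, and RNA from every kidney was read on 1 single-colour array, 20 arrays in all. The vehicle group served all 3 comparisons of AAI with vehicle, so those comparisons share their control arrays, and no vehicle kidneys of day 2 or day 4 were analysed here.

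A miRNA is a short RNA that pairs with messenger RNAs, mainly through its seed, the stretch of bases near its 5′ end, and lowers their output. miR-146a and miR-146b share a seed. In human immune cells miR-146a is induced through NF-kB and represses the adaptors TRAF6 and IRAK1 of Toll-like receptor signalling, and it is therefore described as a brake on inflammation. miR-146b is its paralog and is also known as a miRNA of inflamed tissue.

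The mature sequences are shown because the similarity of both miRNAs decides how well an array can separate them. Capitals mark the seed, bases 2 to 8 from the 5′ end. The sequences are from RefSeq, build GRCr8.
miR-146a-5p: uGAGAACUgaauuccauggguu
miR-146b-5p: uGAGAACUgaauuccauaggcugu
miR-146a-5p has 22 bases and miR-146b-5p has 24, and the first 17 bases are identical. Counted from 1 at the 5′ end of miR-146a-5p, the substitutions towards miR-146b-5p are G18A and U21C, and miR-146b-5p is longer at its 3′ end. Among 724 mature rat entries in the RefSeq table, 2 carried this seed, and they were these 2 miRNAs. In the RefSeq gene table Mir146a lies within a long noncoding RNA gene on chromosome 10, between the protein-coding genes Atp10b and Pttg1. Mir146b overlaps C1h10orf95 on chromosome 1, next to Cuedc2 and Mfsd13a.

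Each miRNA was read by 2 array probes, which are printed because they show where the pair can be told apart. Capitals mark the stretch that all 4 probes have in common, 13 bases long.
miR-146a-5p probe 1390: aacccATGGAATTCAGTTc
miR-146a-5p probe 2583: aacccATGGAATTCAGTTct
miR-146b-5p probe 2469: acagcctATGGAATTCAGTT
miR-146b-5p probe 2601: acagcctATGGAATTCAGTTc
The probes differ in the lower-case bases before the shared stretch, which pair with the 3′ ends of the miRNAs. In the rn4 build that the array files use, the probes of miR-146a-5p lie at chr10:28476387-28476405 and chr10:28476386-28476405, and those of miR-146b-5p at chr1:251558065-251558084 and chr1:251558064-251558084. How much of each signal came from the paralog was not tested.

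The arrays detected 250 to 328 miRNAs each, and the 75th percentile of detected signal ranged from 309.3 to 592 intensity units. A log2 level below is the signal of a miRNA relative to that percentile on the same array, so that 1 unit is a doubling. AAI day 4 array 2 had the 328 detected miRNAs, and AAI day 6 array 2 had the lowest percentile. Changes were tested in limma across 262 miRNAs with Benjamini-Hochberg adjustment, and a change passed at an adjusted p under 0.05. All 6 of 6 listed kidney tubule miRNAs were detected on every array of the labelled tissue. Of 4 miRNAs of liver, muscle and brain 0 reached the test, and the muscle miRNA miR-1-3p was detected on 0 arrays. The other listed ones, miR-122-5p of liver, miR-206-3p of muscle and miR-124-3p of brain, were each detected on some arrays. On AAI day 6 array 5 miR-122-5p had a log2 level of -2.89.

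miR-146a-5p fell in the AAI kidneys, and its mean was lower at each later day. Its level was -0.06 ± 0.15 on the log2 scale at AAI day 6 and 0.66 ± 0.10 in vehicle (SD, n = 5 each), which is a 1.65-fold lower signal. Array by array, the log2 levels in vehicle kidneys were 0.68, 0.78, 0.51, 0.67 and 0.65. At AAI day 2 they were 0.62, 0.32, 0.32, 0.35 and 0.46, and at AAI day 4 they were 0.29, -0.01, 0.18, 0.39 and 0.32. At AAI day 6 they were 0.04, 0.09, -0.18, -0.01 and -0.26. All 5 arrays of AAI day 4 and all 5 of AAI day 6 lay below all 5 vehicle arrays, whereas AAI day 2 array 1 lay within the vehicle range. AAI day 6 also lay below all AAI day 2 arrays and overlapped AAI day 4 through AAI day 4 array 2.

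**Figure D1:**
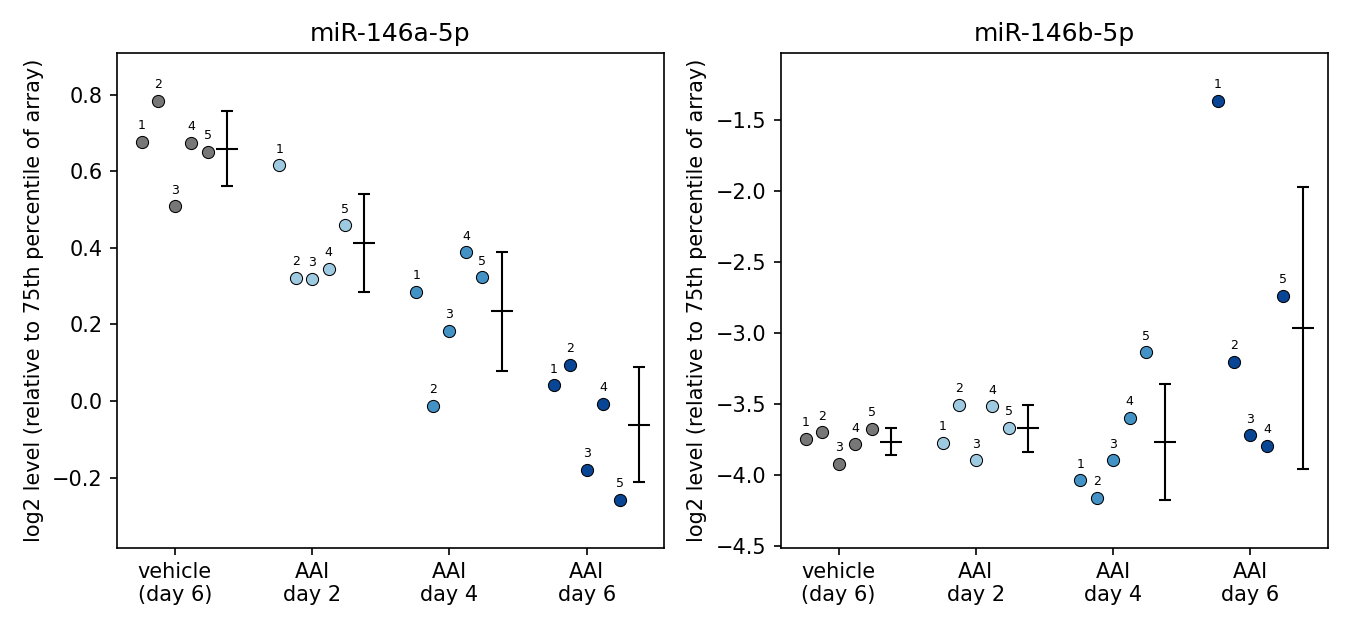
Log2 level of miR-146a-5p (left) and miR-146b-5p (right) on each array, relative to the array's 75th percentile, by group. Points are kidneys with their array number, and bars give the mean and SD of 5 arrays. For miR-146a-5p the AAI day 4 and day 6 points lie below all vehicle points, and for miR-146b-5p the AAI day 6 points spread from -3.79 to -1.36.

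In limma the change of miR-146a-5p at AAI day 6 against vehicle was -0.72 ± 0.09 (SE, 95% interval -0.91 to -0.53, adjusted p = 1.85e-05). At that day 26% of the tested miRNAs passed in either direction and 18.7% of the tested miRNAs passed lower. Groups that did not overlap in the lower direction were found for 19.1% of the tested miRNAs. By size its fall ranked 4 among the changes of all 262, counted from the most negative. At AAI day 4 against vehicle the change was -0.42 ± 0.09 (adjusted p = 0.00792), where 3.44% of the miRNAs passed, 1.15% passed lower and 3.82% lay apart from vehicle in the lower direction. The day 4 value missed the threshold under 10 of 45 other settings. It was -0.063 without scaling (adjusted p = 0.703) and -0.25 with spike-in scaling (adjusted p = 0.545). At AAI day 2 it was -0.25 ± 0.09 and did not pass (adjusted p = 0.298), where 1.15% passed.

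Between AAI days, miR-146a-5p fell by 0.47 ± 0.09 on the log2 scale at day 6 against day 2 (limma adjusted p = 0.00482), where 11.1% of the miRNAs passed, 7.63% passed lower and 7.25% had lower day 6 groups that did not overlap. Its difference was -0.18 at day 4 against day 2 (adjusted p = 0.613, where 0% passed and 20 miRNAs had an unadjusted p under 0.05) and -0.30 at day 6 against day 4 (adjusted p = 0.133, where 0.763% passed). Without AAI day 4 array 2 the last was -0.36 and passed (adjusted p = 0.0316). In the order of mean levels, vehicle, AAI day 2, AAI day 4 and AAI day 6, no neighbouring groups therefore differed past the threshold. Steps that lay further apart did so. An F test over the 4 groups gave an adjusted p of 1.73e-04, and 17.9% of the tested miRNAs passed that test.

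**Figure D2:**
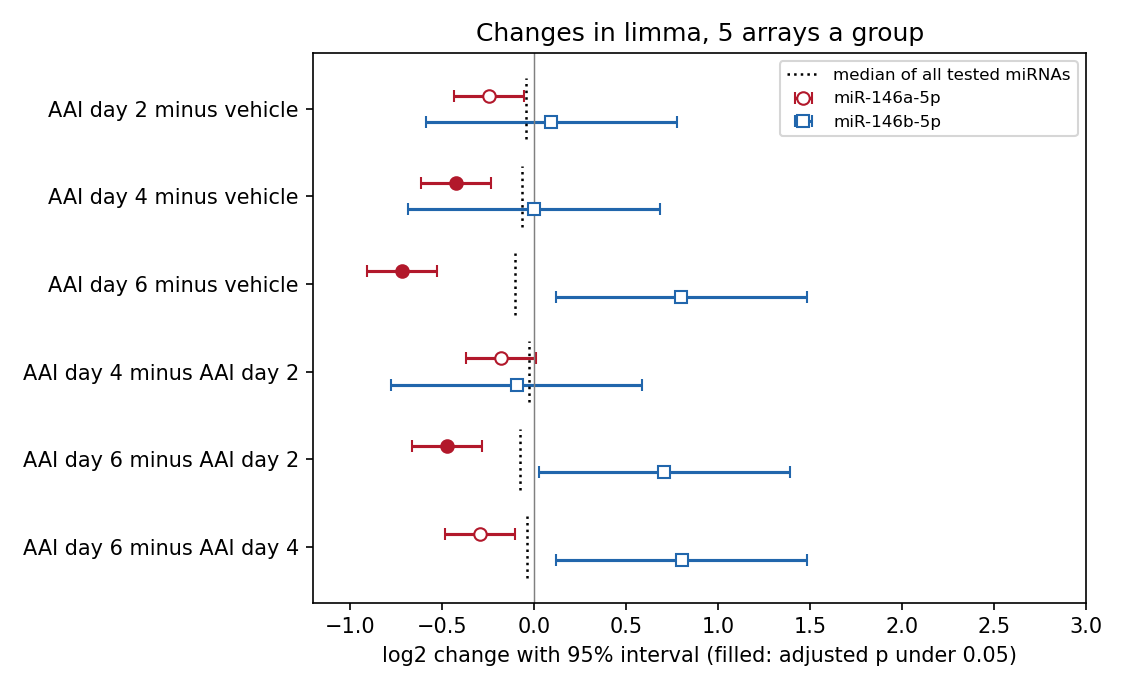
Log2 change of each miRNA in the 6 comparisons, with 95% intervals from limma. Filled symbols passed at an adjusted p under 0.05, dotted marks give the median change of the 262 tested miRNAs, and the intervals of miR-146b-5p are wider than those of miR-146a-5p throughout.

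The size of the fall in miR-146a-5p depended on the scaling between arrays. The background-subtracted intensity before scaling was 551, 330, 466, 525 and 417 units at AAI day 6, against 499, 609, 644, 559 and 573 units in vehicle, and these ranges overlap. Without scaling the day 6 change was -0.35 and did not pass (adjusted p = 0.124), and the tested miRNAs then had a median change of 0.26 instead of -0.11. Relative to that median, the change of miR-146a-5p was -0.61 at day 6 with percentile scaling and -0.55 with quantile normalization. Scalings that shift all miRNAs of an array by the same amount leave this distance as it is, so they are no further check of it. At day 2 the unscaled change was 0.05, so the direction of the day 2 value turned with the scaling.

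Slides and groups overlapped in part. Slide 3 held 4 vehicle arrays, slide 2 held 1 vehicle, 5 AAI day 2 and 2 AAI day 4 arrays, and slide 1 held 3 AAI day 4 and 5 AAI day 6 arrays. When slide entered the fit as a fixed term, the change of miR-146a-5p against vehicle was -0.87 at day 6 and -0.51 at day 4. The day 4 change then missed the threshold. The 4 vehicle arrays of slide 3 add nothing to these blocked changes, since that slide held no other group. Both changes therefore rest on the 1 vehicle array of slide 2. Without AAI day 4 array 2 the blocked day 6 change was -0.72, as large as without the block, and missed the threshold. Within slide 2 alone the AAI day 4 change was -0.51, which is the same comparison as in the blocked fit. No slide held both AAI day 6 and vehicle arrays. Within slide 1, AAI day 6 against AAI day 4 gave -0.36 (limma adjusted p = 0.191).

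miR-146b-5p passed in no comparison, and at AAI day 6 its values spread widely, with a mean above vehicle. Its log2 level was -2.96 ± 0.99 at AAI day 6 and -3.76 ± 0.10 in vehicle (SD, n = 5 each), so the SD was far larger after AAI. The vehicle arrays read -3.74, -3.69, -3.92, -3.78 and -3.67. AAI day 2 arrays read -3.77, -3.50, -3.89, -3.51 and -3.67, and AAI day 4 arrays read -4.03, -4.16, -3.89, -3.60 and -3.13. AAI day 6 arrays read -1.36, -3.20, -3.72, -3.79 and -2.73. With this percentile scaling, arrays 1, 2 and 5 of AAI day 6 lay above every vehicle array, while arrays 3 and 4 lay inside the vehicle range.

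The mean change of miR-146b-5p at AAI day 6 against vehicle was 0.80 ± 0.33 (SE), a 1.74-fold higher signal with a 95% interval of 1.09 to 2.80. It did not pass after adjustment in limma (adjusted p = 0.0760). The changes were 0.09 ± 0.33 at AAI day 2 (adjusted p = 0.929) and -0.00 ± 0.33 at AAI day 4 (adjusted p = 0.998). Their 95% intervals, -0.59 to 0.78 and -0.68 to 0.68, left room for changes of either sign. Day 6 against day 2 gave 0.71 (adjusted p = 0.176), day 6 against day 4 gave 0.80 (adjusted p = 0.320) and day 4 against day 2 gave -0.09 (adjusted p = 0.992). No groups of miR-146b-5p therefore differed past the threshold, and its F test gave an adjusted p of 0.196.

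A single kidney held much of the day 6 mean of miR-146b-5p. In background-subtracted intensity, AAI day 6 arrays read 208, 33.7, 40.1, 38.1 and 75.0 units, against 23.3, 27.3, 29.9, 25.5 and 28.7 units in vehicle. These unscaled ranges did not overlap, and the median change of the tested miRNAs without scaling was 0.26. No share of miRNAs without overlap was taken before scaling. Array 1 was 2.78 times the next highest AAI day 6 array and 7.73 times the vehicle mean. Without AAI day 6 array 1 the change against vehicle was 0.40 (limma adjusted p = 0.159), and without arrays 1 and 5 it was 0.19 (adjusted p = 0.475). In the other direction, leaving out array 3 gave 0.99 (adjusted p = 0.0375) and leaving out array 4 gave 1.01 (adjusted p = 0.0294). Whether the mean change passed was thus set by which AAI day 6 kidneys were counted. The change also passed without scaling, at 1.17 (adjusted p = 0.0301), and with spike-in scaling, at 1.05 (adjusted p = 0.0449). It was 0.16 and did not pass with slide as a fixed block, a value that rests on the 1 vehicle array of slide 2. Within slide 1, AAI day 6 against AAI day 4 gave 0.58 (adjusted p = 0.526).

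The signal of miR-146a-5p relative to that of miR-146b-5p on the same array is free of any scaling between arrays. Because the probes differ, its value is no ratio of molecules, and only its change between groups is used. This log2 ratio was steady in vehicle kidneys, at 4.42, 4.48, 4.43, 4.45 and 4.32. It was 4.39, 3.82, 4.21, 3.86 and 4.12 at AAI day 2 and 4.32, 4.14, 4.08, 3.98 and 3.46 at AAI day 4. At AAI day 6 it was 1.40, 3.29, 3.54, 3.78 and 2.48. Every AAI day 6 array lay below every AAI day 2 and vehicle array. This included arrays 3 and 4, on which miR-146b-5p itself lay within the vehicle range after percentile scaling.

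**Figure D3:**
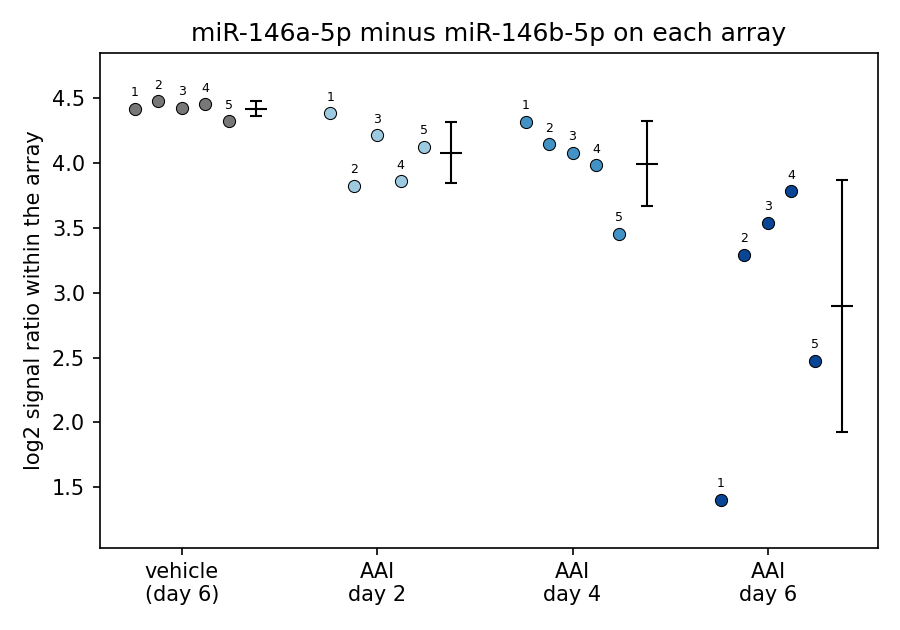
Log2 signal of miR-146a-5p minus that of miR-146b-5p on each array, by group, with array numbers and the mean and SD of 5 arrays. Vehicle kidneys lie between 4.32 and 4.48, and AAI day 6 kidneys between 1.40 and 3.78.

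At AAI day 6 the log2 ratio was 2.90 ± 0.97, against 4.42 ± 0.06 in vehicle (SD, n = 5 each), a difference of -1.52. In two-sided exact permutation tests, adjusted over 6 comparisons, this gave p = 0.0159, and the smallest unadjusted p possible is 0.00794. The difference from vehicle was -0.42 at AAI day 4 (exact adjusted p = 0.0159) and -0.34 at AAI day 2 (exact adjusted p = 0.0238). The day 4 call was lost with quantile normalization, at -0.31 (exact adjusted p = 0.190), and with the deposited log2 values, at -0.30 (0.286). The day 2 call was lost with normexp background correction, at -0.058 (exact adjusted p = 0.50), with quantile normalization, at -0.27 (0.0714), with the deposited log2 values, at -0.28 (0.0595), and on the lower-numbered probe of each miRNA, at -0.33 (0.0571). Day 6 differed from day 2 by -1.18 (exact adjusted p = 0.0159) and from day 4 by -1.10 (exact adjusted p = 0.0286), while day 4 against day 2 gave -0.09 (exact adjusted p = 0.683). The day 6 to day 4 difference missed the threshold when AAI day 4 array 1, 2, 3 or 4 was left out, at -1.02, -1.06, -1.08 and -1.10 (exact adjusted p = 0.0762, 0.0762, 0.0667 and 0.0667). Without AAI day 6 array 1 the day 6 difference from vehicle was -1.15 (exact adjusted p = 0.0159). Within slide 2, with 1 vehicle array, the differences from vehicle were -0.24 at AAI day 2 and -0.09 at AAI day 4, each with an exact adjusted p of 0.667. Such small sets cannot pass, since the smallest unadjusted p possible is 0.167 for AAI day 2 and 0.333 for AAI day 4. Within slide 1 the difference of day 6 from day 4 was -0.94 (exact adjusted p = 0.161). The ratio thus differed between these groups of arrays, and the values do not show which member moved. For day 6 against vehicle, slide and AAI cannot be told apart, as no slide held both groups. Of the 5 vehicle arrays 4 lay on a slide without AAI arrays.

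The probes of each miRNA gave like changes. For miR-146a-5p at AAI day 6 against vehicle, probe 1390 alone gave -0.75 and probe 2583 alone gave -0.70. For miR-146b-5p, probe 2469 alone gave 0.88 and probe 2601 alone gave 0.75. The signal behind them differed: 200 of 200 spots of each miR-146a-5p probe were well above background over the 20 arrays. For miR-146b-5p this held for 196 of 200 spots of probe 2601 and 154 of 200 spots of probe 2469. The median coefficient of variation among spots was 2.53% and 2.89% for the miR-146a-5p probes. It was 14.4% for probe 2469 and 9.62% for probe 2601 of miR-146b-5p, so the miR-146b-5p values carry more spot noise. Array 1 of AAI day 6 stood highest on both miR-146b-5p probes.

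**Figure D4:**
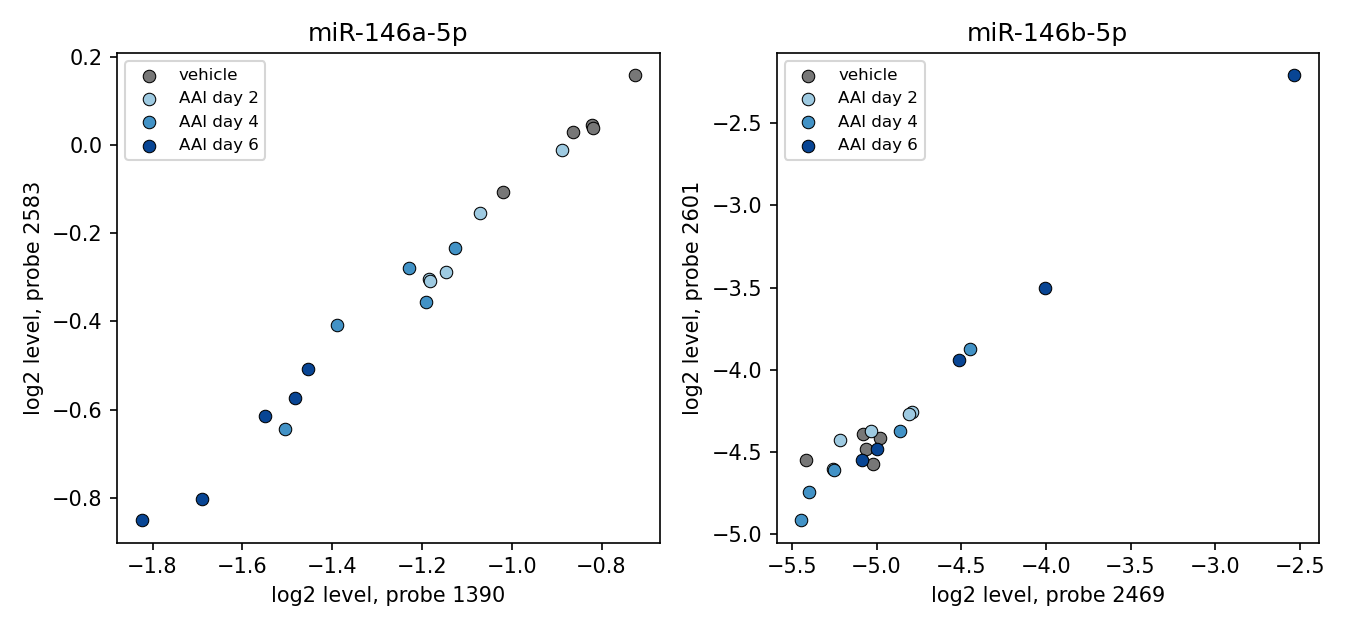
Log2 level of one probe against the other for miR-146a-5p (left) and miR-146b-5p (right), 1 point per array, coloured by group. Points follow a line in both panels, and AAI day 6 array 1 is the point at the upper right for miR-146b-5p.

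The opposite strands miR-146a-3p and miR-146b-3p also had probes. Each was detected on 0 of 20 arrays, with background-subtracted intensity below 0 on all of them. Nothing can be said of their change.

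Other miRNAs tied to inflammatory signalling did not move as one group. The list held 11 miRNAs beside the pair, of which 10 had probes and 9 were tested. In limma 0 passed at AAI day 2 and 0 at AAI day 4 against vehicle, where 0 and 1 had an unadjusted p under 0.05. Of all 262 tested miRNAs 29 and 58 had such a p. At AAI day 6 against vehicle 1 passed higher, 3 passed lower and 5 did not pass, with a median change of -0.15, against -0.11 over all tested miRNAs. Over all 262 miRNAs 68 (26%) passed in either direction, 19 of them higher and 49 (18.7% of the 262) lower. Without scaling and with spike-in scaling 1 of the 9 passed higher and 0 passed lower. Over all 262 miRNAs 34 and 21 then passed higher, and 1 and 3 passed lower. The riser was miR-21-5p, a miRNA of injured and fibrotic kidney, at 1.11 ± 0.24 (adjusted p = 0.00275), which also passed without scaling, at 1.48 (adjusted p = 8.59e-04), and with spike-in scaling, at 1.37 (adjusted p = 7.07e-04). The fallers with percentile scaling were miR-203a-3p, a miRNA of epithelia, at -0.57 ± 0.09 (adjusted p = 2.80e-04), miR-181b-5p, described as a brake on NF-kB in endothelium, at -0.44 ± 0.09 (adjusted p = 0.00186), and miR-125b-5p at -0.19 ± 0.06 (adjusted p = 0.0332). Among those that did not pass, miR-132-3p, which like miR-146a is induced by Toll-like receptor stimulation in human monocytes, had 0.72 ± 0.30 (adjusted p = 0.0816). It was detected on 5 of 5 AAI day 6 arrays, 4 of 5 at AAI day 2 and at AAI day 4, and 2 of 5 vehicle arrays. miR-132-3p thus reached the test only through AAI day 6, where its mean was highest, so its change is no evidence of a rise. The myeloid miR-223-3p had -0.17 ± 0.19 (adjusted p = 0.507). miR-9a-5p, miR-199a-5p and let-7i-5p had 0.36, -0.15 and -0.09. miR-147 was not tested, as it was detected on no array, and miR-155-5p was not analysed here.

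Levels of miRNAs from leukocytes, where miR-146a is also expressed, were read beside the pair. In bulk kidney, fewer cells of a type and less RNA per cell cannot be told apart. Of 6 listed leukocyte miRNAs 5 had probes and were tested, and at AAI day 6 against vehicle 1 passed lower and 0 higher, where 18.7% of all tested miRNAs passed lower. The one that fell was miR-342-3p at -0.65 ± 0.12 (limma adjusted p = 5.96e-04), a call lost without scaling, at -0.28 (adjusted p = 0.229), and with spike-in scaling, at -0.40 (adjusted p = 0.112), while miR-142-3p had -0.69 ± 0.27 (adjusted p = 0.0620). The median change of the list was -0.60. At AAI day 2 and day 4 against vehicle 0 passed in limma, and 0 and 1 had an unadjusted p under 0.05. Of all 262 tested miRNAs 29 and 58 had such a p. The summed relative signal of the list was 2.51 to 2.60 in vehicle, 2.11 to 2.45 at AAI day 2, 1.78 to 2.41 at AAI day 4 and 1.81 to 2.50 at AAI day 6. Every AAI array thus lay below every vehicle array in that percentile-scaled sum. The margin was small, with 2.502 on AAI day 6 array 1 and 2.508 on vehicle array 2. The sum was not taken with other scalings, and no share over all miRNAs goes with it. miR-150-5p, also in the sum, had a day 6 change of 0.005 (limma adjusted p = 0.977). The part of leukocyte miRNAs in the fall of miR-146a-5p was not tested.

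On AAI day 6 array 1, where miR-146b-5p was highest, miR-223-3p was 0.68 above the vehicle mean and miR-142-3p 0.14 above it on the log2 scale. The other leukocyte miRNAs on that array were 0.24 for miR-142-5p, -0.19 for miR-150-5p and -0.70 for miR-342-3p relative to the vehicle mean. Thus 3 of the 5 stood above it, among them both strands of miR-142, which are not separate markers. No share over all miRNAs goes with that count. On array 2, which had the next highest miR-146b-5p after arrays 1 and 5, miR-223-3p stood at 0.06 and miR-142-3p at -0.02. On arrays 3, 4 and 5 miR-223-3p stood at -0.69, -0.55 and -0.37 relative to that mean, and miR-142-3p at -1.46, -1.10 and -1.03. Array 5 had the second highest miR-146b-5p. Array 1 also had the highest miR-21-5p and miR-132-3p of its group, at 1.96 and 1.83 above the vehicle mean. Only 2 of 5 vehicle arrays detected miR-132-3p. Of the 262 tested miRNAs 62 were highest on array 1 within the group. The gap between array 1 and the next AAI day 6 array was 1.37 log2 units for miR-146b-5p, wider than for any other of the 262 tested miRNAs, a measure chosen after its values were seen. The part of other cells in that array was not tested.

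**Figure D5:**
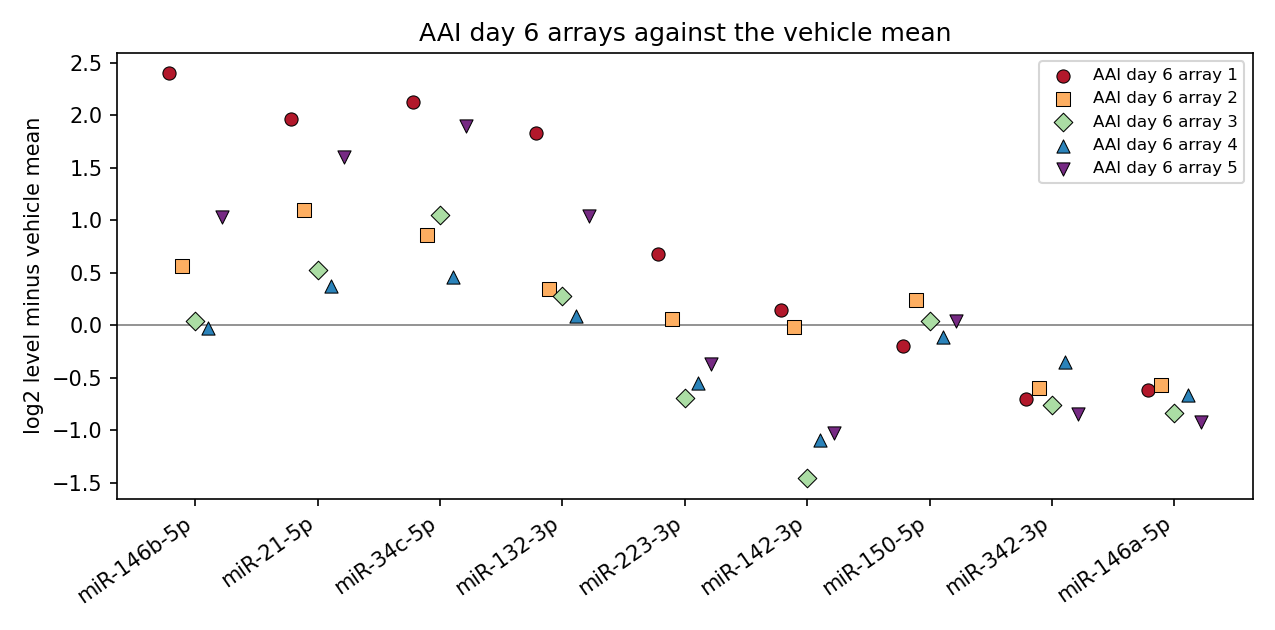
Log2 level of each AAI day 6 array minus the vehicle mean for miR-146b-5p, miR-21-5p, miR-34c-5p, miR-132-3p, leukocyte miRNAs and miR-146a-5p. Array 1 is highest for miR-146b-5p, miR-21-5p, miR-34c-5p, miR-132-3p, miR-223-3p and miR-142-3p, while all 5 arrays lie below 0 for miR-146a-5p and miR-342-3p. Of all 262 tested miRNAs 62 were highest on array 1. miR-21-5p and miR-34c-5p were among those most like miR-146b-5p over the same arrays.

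Some markers of other compartments fell at AAI day 6 with percentile scaling. Of 6 kidney tubule miRNAs 4 passed lower, where 18.7% of all tested miRNAs did. They were miR-194-5p at -0.63 ± 0.13 (limma adjusted p = 0.00221), miR-192-5p at -0.56 ± 0.13 (adjusted p = 0.00438), miR-204-5p at -0.42 and miR-196a-5p at -0.31. miR-30a-5p at -0.06 and miR-10b-5p at -0.11 did not pass (limma adjusted p = 0.642 and 0.414). With median scaling 1 of the 6 passed lower, where 11 of the 262 tested miRNAs did. Without scaling and with spike-in scaling 0 of the 6 passed, miR-194-5p having -0.26 (limma adjusted p = 0.221) and -0.37 (adjusted p = 0.105). Their summed relative signal was 21.9 to 26.2 at AAI day 6, against 27.4 to 28.4 in vehicle. The erythrocyte miRNA miR-451-5p had -2.73 ± 0.34 (adjusted p = 1.85e-05) and also passed without scaling, at -2.36, and with spike-in scaling, at -2.47. The sum of the erythrocyte miRNAs with probes was 0.0555 to 0.202 at AAI day 6, against 0.407 to 1.34 in vehicle. Both endothelial miRNAs, miR-126a-3p and miR-126a-5p, were tested at AAI day 6 in limma, and 0 passed and 1 had an unadjusted p under 0.05. Of all 262 tested miRNAs 107 had an unadjusted p under 0.05 in that comparison. The sum for endothelium was 6.98 to 8.78 at AAI day 6, against 8.94 to 9.15 in vehicle. The change of miR-126a-3p was -0.21 with percentile scaling, 0.16 without scaling and 0.05 with spike-in scaling. That of miR-126a-5p was -0.13, 0.24 and 0.12, so the direction of both turned with the scaling. The sums of these lists were taken with percentile scaling alone, and no share over all miRNAs goes with them. The part of these compartments in the change of either paralog was not tested.

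Across the 20 arrays the pair was only weakly related, with a Pearson r of -0.33 and a Spearman rho of -0.08, given as a description because arrays of a group share their treatment. The miRNAs most like miR-146a-5p, among 230 detected on all arrays, were miR-361-5p, miR-342-3p, miR-28-5p and miR-185-5p with r of 0.92 each and miR-181b-5p with 0.91. The least like was the p53-induced miR-34a-5p with r of -0.85. At AAI day 6 against vehicle miR-361-5p had -0.41, miR-28-5p -0.41 and miR-185-5p -0.69, and all 3 passed in limma (adjusted p = 5.98e-04, 0.00118 and 2.88e-04). Of all tested miRNAs 18.7% passed lower there. Without scaling 1 of the 262 passed lower, and it was miR-451-5p, so these 3 calls were lost. These 3 were chosen by correlation over the same arrays, so their fall partly follows from that choice and is no separate result.

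The miRNAs most like miR-146b-5p were others: miR-21-5p with r of 0.89, miR-34c-5p with 0.87, miR-503-5p with 0.85, miR-18a-5p with 0.84 and miR-34b-5p with 0.82. The least like was miR-378b with -0.72. Without AAI day 6 array 1 the order was miR-18a-5p with r of 0.87, miR-21-5p with 0.86, miR-34c-5p with 0.84 and miR-34b-5p with 0.83, while miR-503-5p had 0.57 and rank 19 of 230. miR-378b then had -0.50 and rank 221, so it was no longer the least like. For miR-146a-5p the same 5 miRNAs and miR-34a-5p kept the ends of the order without that array. miR-21-5p read 5.34, 4.48, 3.91, 3.76 and 4.98 on AAI day 6 arrays 1 to 5, and its order over these kidneys, arrays 1, 5, 2, 3 and 4, was that of miR-146b-5p. At AAI day 6 against vehicle miR-34c-5p had 1.28 ± 0.28 (limma adjusted p = 0.00275) and miR-34b-5p passed in the same direction (adjusted p = 0.00636). Both are p53-induced paralogs of miR-34a. Over all 262 tested miRNAs 19 passed higher there. The miRNAs named here were chosen by correlation over the same arrays, so their rise or shared order partly follows from that choice. Neither list of 5 contained a miRNA of the other, and the arrays share scaling and slides, which can add to any of these correlations.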

How the data were processed

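Total RNA from 20 rat kidneys was labelled with Cy3 and hybridized to Agilent miRNA arrays. The scanner output was made with Agilent Feature Extraction 10.7.1.1, per the file headers, and gives spot intensity in arbitrary units after background subtraction, as deposited. Deposited detection and outlier flags (0 or 1) are of other units. A table of log2 values was also deposited by the authors, and its scaling is not given in the sources used here. Its per-array medians were -3.32 to -3.01, its direction ran with the scanner values, its centring is unknown, and it served only as an alternative.

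For each miRNA the mean of unflagged spots was summed over probes and divided by the array's 75th percentile over the 231 miRNAs detected on all arrays. Values below 0.0163, the 1st percentile of detected signals, were raised to it (45 of 5240 tested values), and log2 was taken. A miRNA had to be detected on every array of some group, which left 262, and limma 3.58.1 (R 4.3.3) tested 6 contrasts between group means, two-sided. The number of arrays limits the precision. The labels do not say that each kidney came from a separate rat, so p-values measure the spread between kidneys. Named miRNAs were the pair, their opposite strands, tested list members, and for each member the 5 miRNAs with the highest and the 1 with the lowest Pearson r over arrays. Members and lists were chosen with earlier results of these data known. Alternatives varied background correction, scaling, probe summary, filter, floor, slide block, replicate block, left-out arrays and the deposited table. Same-numbered arrays of 2 groups correlated at -0.67 to 0.68 in their deviations, above 0.1 in 11 of 30 pairs, so numbers were not taken to pair kidneys.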

Additional observations from a re-analysis of the deposited data

Results flagged for a closer look

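The background-subtracted intensity of miR-146b-5p on AAI day 6 array 1 was 208 units, far from the other arrays of its group by Dixon's test at 95% (gap over range 0.763). On the log2 scale its gap did not pass that test. AAI day 4 array 2 had 328 detected miRNAs, and AAI day 6 array 2 had a 75th percentile of 309.3 units, each apart from its group by the same test. These were 3 of 28 sets of 5 arrays examined, and chance alone would single out about 1 in 20.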

How the results depend on the processing

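No called change turned direction under any alternative run. The fall of miR-146a-5p at AAI day 6 against vehicle stayed past the threshold in 42 of 44 alternatives, but not without scaling (-0.35) or with slide as a fixed block without AAI day 4 array 2 (-0.72). At AAI day 4 it stayed in 35 of 45, and missed with normexp (-0.34), the percentile over all miRNAs (-0.42), median scaling (-0.45), no scaling (-0.063), spike-in scaling (-0.25), the software's total signal (-0.33), slide as a fixed (-0.51) or a random block (-0.45), within slide 2 (-0.51) and with the fixed block without AAI day 4 array 2 (-0.36). At day 6 against day 2 it missed with median scaling (-0.45), no scaling (-0.40), spike-in scaling (-0.47), the software's total signal (-0.34) and the fixed block without AAI day 4 array 2 (-0.49). Leaving out 1 array at a time gave -0.36 to -0.25 at day 6 against day 4, past the threshold without AAI day 4 array 2. For miR-146b-5p at day 6 against vehicle it gave 0.40 to 1.01, and unscaled (1.17) or spike-in scaled (1.05) values passed. The cause was not tested. Changes against vehicle with slide as a fixed block rest on the 1 vehicle array of slide 2.

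The log2 ratio missed the threshold for AAI day 2 against vehicle with normexp (-0.058), quantile normalization (-0.27), within slide 2 (-0.24), the deposited table (-0.28) and the lower-numbered probe of each miRNA (-0.33). For AAI day 4 against vehicle it missed with quantile normalization (-0.31), within slide 2 (-0.090) and with the deposited table (-0.30). Within slide 2, with 1 vehicle array, no difference could pass. For day 6 against day 4 it missed with quantile normalization (-1.09), within slide 1 (-0.94), the deposited table (-1.12), without AAI day 6 arrays 1 and 5 (-0.46) and without AAI day 6 array 1 and AAI day 4 array 2 (-0.69). The last pair of settings and the single probes were chosen after seeing the data. Leaving out single arrays gave -1.32 to -0.72, past the threshold except without AAI day 4 array 1, 2, 3 or 4. Day 6 against day 2 missed without AAI day 6 arrays 1 and 5 (-0.54). With a replicate block, an exact sign-flip test of 5 pairs cannot go below 0.0625, and the ratio gave -0.34, -0.42 and -1.52 for days 2, 4 and 6 against vehicle, -1.18 for day 6 against day 2 and -1.10 for day 6 against day 4, each with an adjusted p of 0.0750. The replicate block changed no other call of the pair.

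Counts of miRNAs passing moved with the settings, from 0 to 9 at day 2 (3 as reported), 0 to 18 at day 4 (9), 0 to 90 at day 6 (68), 0 to 35 at day 4 against day 2 (0), 0 to 95 at day 6 against day 2 (29) and 0 to 8 at day 6 against day 4 (2). At day 4 against day 2, 20 miRNAs had an unadjusted p under 0.05. At day 6 against vehicle 19 passed higher and 49 lower as reported, against 34 and 1 unscaled, 21 and 3 on spike-ins, 16 and 11 on the median and 16 and 60 with the percentile over all miRNAs. Signal over background limits miR-146b-5p more than miR-146a-5p.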
